A study of Mus musculus with 8 samples.

Results

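Mitochondrial biogenesis is steered by a small set of transcriptional regulators, and 10 of their genes were followed here in C2C12 cells after silencing of the long non-coding RNA Pvt1: Ppargc1a, Ppargc1b, Pprc1, Ppara, Ppard, Pparg, Esrra, Nrf1, Gabpa and Tfam. The members were chosen by name, as every array spot that is not a control and carries one of these gene names, which gave 24 of the 56605 probes and 10 of the 37074 gene names on the array. RNA came from 8 cultures of proliferating C2C12 cells, an established line of mouse myoblasts, all at passage 10 according to the labels. In 4 cultures (silenced 1 to 4) the cells had received the LNA GapmeRs Pvt1_1 and Pvt1_3, antisense oligonucleotides that direct cleavage of Pvt1. The 4 negative control cultures (control 1 to 4), labelled as mock, had received control GapmeRs with the same transfection reagent, so transfection was common to both groups. No genotype differed between the groups, and all results concern 1 cell line before differentiation.

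The 3 PGC-1 proteins, coded by Ppargc1a (PGC-1α), Ppargc1b (PGC-1β) and Pprc1 (PRC), are coactivators: they do not bind DNA themselves but dock on transcription factors at the genes to be switched on. Their partners include the nuclear receptors PPARα, PPARδ and PPARγ (Ppara, Ppard, Pparg), which drive genes of fatty acid use and storage, and ERRα (Esrra), which drives genes of oxidative metabolism. Nuclear respiratory factor 1 (Nrf1) and GABPα (Gabpa, also called nuclear respiratory factor 2α) activate nuclear genes of the respiratory chain and Tfam, whose protein enters mitochondria, packs mitochondrial DNA and starts its transcription. In muscle this network is best known for matching mitochondrial content to contractile activity. Nrf1 is not the stress factor Nfe2l1, which shares the abbreviation.

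Because the array reads each gene with short probes, the result for a gene depends on the stretch of transcript its probes read. Probes are numbered here from the 5′ end of the gene, and the files place them on mouse build mm9. The first 30 of the 60 bases are shown for the 3 tested Nrf1 probes, since these 3 gave different results, then for the tested Ppargc1a probe, the largest rise among the members, and for both Tfam probes. For Gabpa probe 3 the 30 bases shown start at base 26 of the probe, and the capitals mark AATAAA, a polyadenylation signal, which no other probe of these genes holds.
Nrf1 probe 1: ccacattggctgatgcttcagaactgccaa
Nrf1 probe 3: agattcatacagattttggaaagggattca
Nrf1 probe 4: ctcccgtgcgtgatagtgtatttaatgtgg
Ppargc1a probe 2: ccccttcaaatggcagcatttccatgaaga
Tfam probe 1: ctctgagcattaagatggaagacggagttg
Tfam probe 2: ctttgagccttgacagaagatgatgctgag
Gabpa probe 3: ttttactctttaAATAAAgacacttatact

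Signals are given as log2 of the processed spot signal after quantile normalization between arrays, and a change is the silenced mean minus the control mean on that log2 scale. A probe was tested when it had values on at least 3 of the 4 arrays of each group, and was called at a limma adjusted p under 0.05 over all 28649 tested probes. The signal of one probe was not read as a higher or lower level of RNA than that of another; each gene was represented by its probe with the highest mean signal, and where probes of a gene were set side by side it was their changes that were compared. Pvt1 itself was lower on every silenced array than on any control array: its brightest probe (chr15:62081020-62081079) changed by -2.86 (SE 0.32, limma adjusted p 0.000682), which left 13.8% of the control level. Spots that were positive and significant made up 58.8% to 62.5% of each control array and 51.6% to 61.0% of each silenced array, with silenced 4 the lowest. All 8 arrays lay on 1 slide; the upper row held control 1 to 3 and silenced 1, the lower row control 4 and silenced 2 to 4. Myoblast markers checked the label: 11 of 12 were well above background on some control array, but Myf5, a myogenic factor, was so on none, nor on any silenced array, so no fold is given for it (adjusted p 0.0530, called higher in 7 of 18 alternatives). Of the 12, 4 were called lower, 0 higher and 8 not called, against 14% lower and 5.99% higher over all genes by their brightest probe, and their summed linear signal was 153291 to 183692 on the control arrays and 114591 to 145104 on the silenced arrays. Myod1, the myogenic master regulator, changed by -1.95 (adjusted p 0.00130) and Des, which codes for desmin, by -1.35 (adjusted p 0.00374).

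The main result was a fall of Nrf1 on 2 of its 3 tested probes, while the coactivators, the nuclear receptors, Gabpa and Tfam had no called probe. Of the 24 probes, 17 were tested, from 9 of the 10 genes; 2 were called lower, 0 were called higher and 15 were not called. For comparison, 18.4% of all tested probes were called lower and 4.79% higher. Taking each gene by its brightest tested probe, 1 of the 9 genes was called lower and 0 higher, against 14% and 5.99% of the 19360 genes tested. The counts of called members lie near or under these background shares. The silenced signals lay below every control signal on 5 of the 17 probes and above every control signal on 0, against 22.6% and 5.61% of all tested probes. The median change of the 17 probes was -0.37, beside -0.19 over all tested probes. At an unadjusted limma p under 0.05 there were 4 member probes: both called Nrf1 probes, Ppargc1a probe 2 and Tfam probe 1. The methods' t-test called 1 member probe after adjustment, Nrf1 probe 1. The direction of the whole array depended on the scaling, since 79.3% of all called probes were lower here but 49.3% with cyclic loess, where the median of all probes was 0.02.

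**Figure D1:**
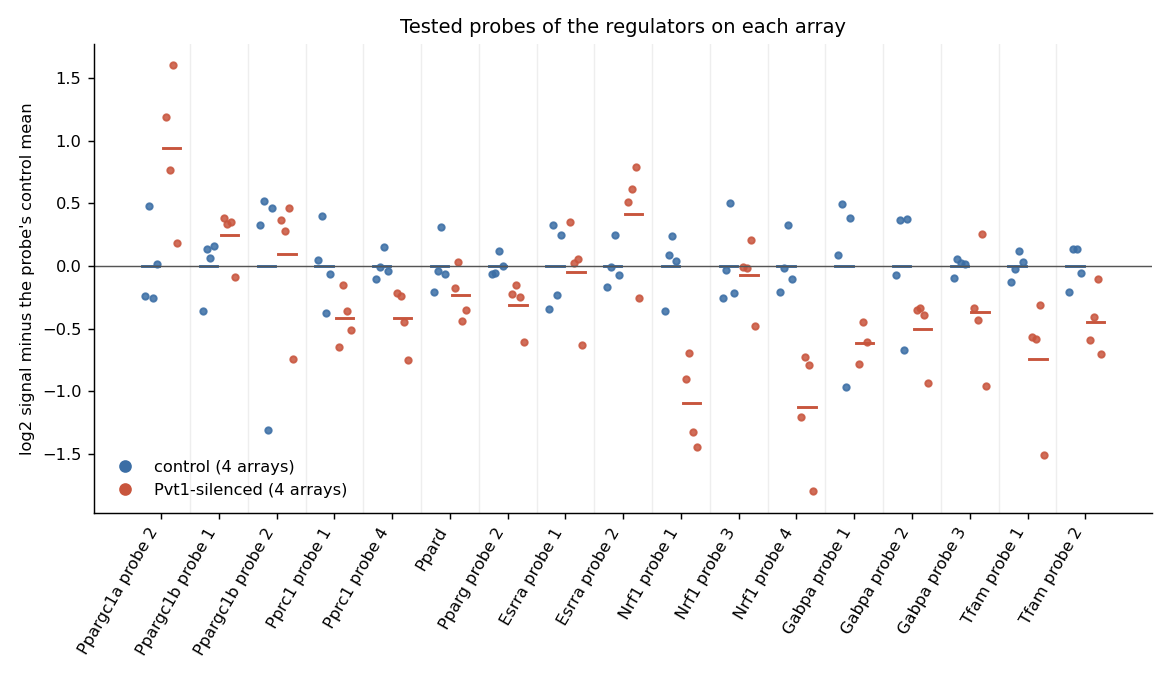
Each point is 1 array, plotted as its log2 signal minus the mean of the 4 control arrays for the same probe (y axis), for the 17 tested probes (x axis); bars are group means. Nrf1 probes 1 and 4 are the ones where the silenced mean lies more than 1 log2 unit under the controls, while 3 of 4 silenced arrays lie above all controls for Ppargc1a probe 2.

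**Figure D2:**
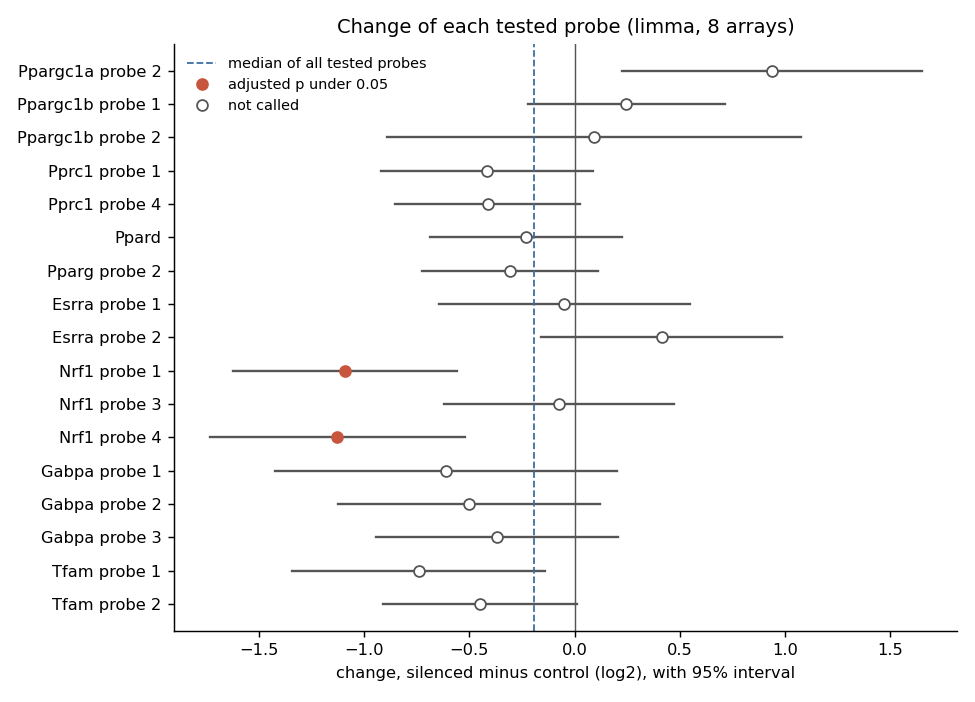
Change of each of the 17 tested probes (silenced minus control, log2, x axis) with its 95% interval from limma on 8 arrays; filled points passed the adjusted threshold, and the dashed line is the median of all tested probes, -0.19. The 2 filled points are Nrf1 probes 1 and 4, and the intervals of Ppargc1a probe 2 and Tfam probe 1 also leave out 0.

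Ppargc1a had the largest rise of the coactivators, though it did not pass the adjusted test. Probe 2 (NM_008904, chr5:51848928-51848987, minus strand) read 6.02, 6.74, 6.0 and 6.27 on control 1 to 4 and 7.45, 7.03, 7.86 and 6.45 on silenced 1 to 4. After normalization silenced 4 alone fell inside the control range. Its processed signal before normalization between arrays was 133, against 53.3 to 93.2 on the controls. The change was 0.94 (SE 0.32, 95% interval 0.22 to 1.65, 1.91-fold), with a limma p of 0.0152 and an adjusted p of 0.0604. This was a dim probe: 2 of 4 control arrays and 4 of 4 silenced arrays read it well above background. Without silenced 4 the change was 1.19 with an adjusted p of 0.0133, and it was also called with a 75th percentile shift (adjusted p 0.0310), cyclic loess (0.00216), no masking of dim spots (0.00557) and the authors' table (0.00158). Over its 19 alternatives the adjusted p ran from 0.00158 to 0.15, and every change was above 0. Within the rows of the slide the change was 1.20 in the upper and 0.84 in the lower row. Probe 1 was positive and significant on 2 silenced arrays and 0 control arrays, well above background on none, and was not tested.

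Ppargc1b and Pprc1 gave no call. Ppargc1b probe 1 read 9.72, 10.21, 10.13 and 10.23 on the control arrays and 10.46, 10.41, 10.42 and 9.99 on the silenced arrays. Here 3 of 4 silenced arrays lay above all controls after normalization and silenced 4 lay inside their range. Before normalization between arrays silenced 4 had a signal of 1285, against 984 to 1202 on the controls. Its change was 0.25 (SE 0.21, adjusted p 0.439), and it was called under cyclic loess (0.42, adjusted p 0.0289), no masking (0.48, adjusted p 0.0132) and the authors' table (0.47, adjusted p 0.0158). Over its 20 alternatives the change ran from 0.13 to 0.48. Ppargc1b probe 2 changed by 0.09 (SE 0.44, adjusted p 0.907) with overlapping groups, and its sign turned to -0.34 without control 3, which read 6.05 against 7.69 to 7.88 on the other controls. Pprc1 probe 4 (NM_001081214, chr19:46147083-46147142) was bright, with 12.26, 12.36, 12.52 and 12.33 on the control arrays and 12.15, 12.13, 11.92 and 11.61 on the silenced arrays. All silenced values lay under the lowest control. The change of -0.41 (SE 0.20, adjusted p 0.162) did not pass the test. Pprc1 probe 1 was tested and not called (adjusted p 0.212), and was well above background on no array. Pprc1 probe 3 was positive and significant on 4 control arrays and 1 silenced array and well above background on 2 controls only, and probe 2 was positive on 1 control array; neither was tested.

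Among the nuclear receptors, Ppard and Pparg were well measured and Ppara was near the background. Ppard (NM_011145, chr17:28438298-28438357) read 11.33, 11.50, 11.85 and 11.47 on the control arrays and 11.36, 11.57, 11.10 and 11.19 on the silenced arrays, with overlapping groups. Its change was -0.23 (SE 0.20, 95% interval -0.69 to 0.23, adjusted p 0.455). Pparg probe 2 (NM_011146, chr6:115440213-115440272), the receptor best known from fat cells, read 11.67, 11.67, 11.84 and 11.73 on the control arrays and 11.50, 11.57, 11.48 and 11.12 on the silenced arrays. The silenced values all lay under the controls, by a small margin, and the change was -0.31 (SE 0.19, 95% interval -0.73 to 0.11, adjusted p 0.269). Pparg probe 1 was positive on no array. Of 10 fat markers, 4 were well above background on some control array and 4 on some silenced array, with a summed linear signal of 486 to 648 and 600.2 to 894, and their part in the Pparg values was not tested. Of the 6 fat markers tested, 5 were not called, 0 were called higher and 1 was called lower, near the 14% over all genes. The lower one was Lep, the fat hormone leptin, which changed by -0.92 (adjusted p 0.0135) and was named after its value was seen. Adipoq, which codes for adiponectin, was well above background on 0 of 8 arrays, and Fabp4, a fatty acid carrier, changed by 0.54 (adjusted p 0.291), by 0.33 without control 1 and by 0.29 without silenced 3. Fabp4 was called higher in 2 of 19 alternatives, cyclic loess (0.90, adjusted p 0.0281) and the authors' table (0.90, adjusted p 0.0290).

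Ppara had no tested probe. Its probe 2 (NM_011144, chr15:85637193-85637252) was well above background only on silenced 3, and probe 1 was positive and significant on 2 silenced arrays and well above background on none. Ppara is abundant in liver, and RNA of liver genes was seen on the silenced arrays. Alb, which codes for albumin, read 3.89 on average on the control arrays and 9.57 on the silenced arrays, before masking of dim spots. Of 37 liver markers, 4 were well above background on some control array and 20 on some silenced array. Their summed linear signal was 1559 to 2362 on the control arrays and 7224 to 9607 on the silenced arrays. Ttr, the plasma carrier transthyretin, was well above background on 3 silenced arrays and 0 controls, and Apoa1, a main protein of plasma lipid particles, on none. The part of this signal in the values of Ppara and Ppargc1a, which liver cells also express, was not tested. Its part in the rises of Lpin1, Angptl4 and Cpt2, given below, was not tested either.

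Esrra, the receptor that most directly partners PGC-1 coactivators, was not called. Probe 2 (NM_007953, chr19:6985503-6985562, minus strand) read 12.58, 12.74, 12.99 and 12.67 on the control arrays and 13.25, 13.36, 13.53 and 12.49 on the silenced arrays. As with Ppargc1a, 3 silenced arrays lay above all controls and silenced 4 did not. The change was 0.41 (SE 0.26, 95% interval -0.16 to 0.98, adjusted p 0.277). It was called without silenced 4 (0.63, adjusted p 0.0266), under cyclic loess (adjusted p 0.0283), without masking (0.0245) and in the authors' table (0.0224), within a range of 0.0224 to 0.652 over 20 alternatives. Probe 1 (AK046588, chr19:6991170-6991229) changed by -0.05 (adjusted p 0.917), and its sign turned in 7 of 19 alternatives, cyclic loess (0.32) among them.

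Nrf1, the respiratory factor that activates nuclear genes for mitochondria, fell on the probes nearest both ends of those tested. Probe 4, its brightest (NM_001164226, chr6:30103035-30103094), read 11.66, 11.85, 12.20 and 11.76 on the control arrays and 10.66, 11.14, 11.08 and 10.07 on the silenced arrays. No silenced array reached a control. The level fell by 1.13 on the log2 scale (SE 0.27, limma adjusted p 0.0158), to 45.8% of control. Probe 1 (NM_001164228, chr6:30067078-30067137) read 8.86, 9.30, 9.45 and 9.26 against 8.32, 8.52, 7.89 and 7.78. Again the groups did not overlap. It fell by 1.09 on the log2 scale (SE 0.24, limma adjusted p 0.0105), to 47.0% of control. Within the slide rows, probe 4 changed by -1.24 in the upper and -1.0 in the lower row, and probe 1 by -0.89 and -1.19. With the row as a block both calls were lost, at changes of -1.12 (adjusted p 0.0689) and -1.04 (adjusted p 0.0595). Probe 4 also lost its call with the methods' t-test (adjusted p 0.0727). Each kept its call with any 1 array left out and under every scaling tried.

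Nrf1 probe 3 (NM_001164227, chr6:30094644-30094703), which lies between these, did not share the fall. It read 10.32, 10.55, 11.08 and 10.36 on the control arrays and 10.57, 10.56, 10.79 and 10.10 on the silenced arrays, and the groups overlapped, with silenced 4 under the lowest control. The change was -0.07 (SE 0.24, 95% interval -0.62 to 0.47, adjusted p 0.862), with a sign that turned in 6 of 19 alternatives, cyclic loess (0.09) among them. The difference between probes 1 and 3 on the same array moved by -1.02 from control to silenced arrays, and the difference between probes 3 and 4 by 1.05. Both had an exact two-sided permutation p of 0.0286, the smallest that 4 against 4 arrays allow, and 0.143 after adjustment over the 10 pairs of probes of one gene; this test was added after the values had been seen. Probe 2 (NM_001164229) was positive on no array. The mean of the 3 tested probes changed by -0.76 (adjusted p 0.0481). Which exons or untranslated regions the probes read was not analysed here.

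**Figure D3:**
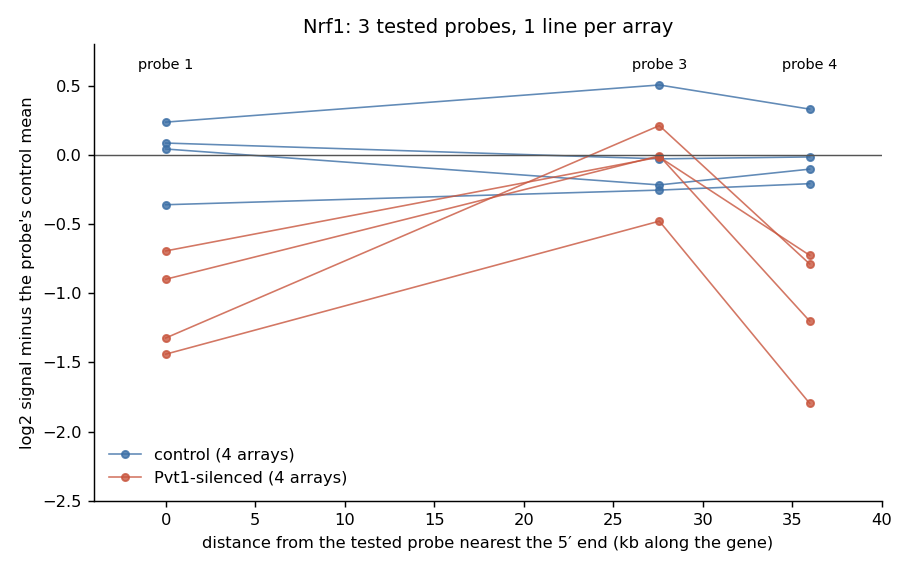
Each line is 1 array and joins the 3 tested Nrf1 probes at their distance in kb from probe 1 (x axis); the y axis is the log2 signal minus the probe's control mean. The silenced lines lie under all control lines at probes 1 and 4, while 3 of 4 lie among them at probe 3.

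Gabpa, the DNA-binding subunit of the second respiratory factor, changed downwards on all 3 probes without a call. Probe 3 (NM_008065, chr16:84863822-84863881) read 10.26, 10.40, 10.37 and 10.37 on the control arrays and 10.01, 9.92, 10.61 and 9.39 on the silenced arrays. The controls were tight and silenced 3 lay above them while the other 3 silenced arrays lay below. Its change was -0.37 (SE 0.26, adjusted p 0.337). Over its 20 alternatives the change ran from -0.57 to -0.12, with 0 calls. Probe 2 changed by -0.50 (SE 0.28, adjusted p 0.226), and probe 1 by -0.61 (SE 0.36, adjusted p 0.256), where silenced 4 was left out because its spot was marked as an outlier. Without control 3, which read 7.25 against 8.30 to 8.71 on the other controls, the change of probe 1 was -0.92 with an adjusted p of 0.0227.

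Tfam, the factor that packs and transcribes mitochondrial DNA, showed the strongest change after Nrf1 and Ppargc1a, on its dimmer probe 1. Its brightest probe, which represents the gene, is probe 2. Probe 1 (NM_009360, chr10:70691260-70691319, minus strand) read 11.96, 12.06, 12.20 and 12.12 on the control arrays and 11.51, 11.50, 11.77 and 10.57 on the silenced arrays. All silenced values lay under the lowest control, and silenced 4 was far under the rest. The change was -0.74 (SE 0.27, 95% interval -1.34 to -0.14, 59.8% of control), with an adjusted p of 0.0740. It passed the threshold in 6 of 19 alternatives, among them cyclic loess (-0.58, adjusted p 0.0171), normexp background correction (adjusted p 0.0458) and a robust trended prior (adjusted p 0.0187). Over all 19 the change ran from -0.87 to -0.49 and the adjusted p from 0.0171 to 0.219. Probe 2 (chr10:70691103-70691162), only 157 bases further toward the 3′ end, read 12.15, 12.50, 12.50 and 12.31 against 11.78, 11.96, 12.26 and 11.66. Here silenced 3 lay inside the control range. The change was -0.45 (SE 0.21, adjusted p 0.148), close in size to that of Pprc1 probe 4 (-0.41) and Esrra probe 2 (0.41).

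Over the array, the change of a probe moved with its position along the transcript. Of 6179 genes with several tested probes on one strand, 4337 (70.2%) had a lower change at the tested probe nearest the 5′ end than at the one nearest the 3′ end, with a median difference of -0.43. By the same count this held for 4 of the 6 regulators with several tested probes. Those 4 were Esrra, Gabpa, Tfam and Pprc1, whose probes 1 and 4 differed by less than 0.01, while Ppargc1b and Nrf1 had the lower change at the 3′ end. The part of probe position in the members' values was not tested.

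**Figure D4:**
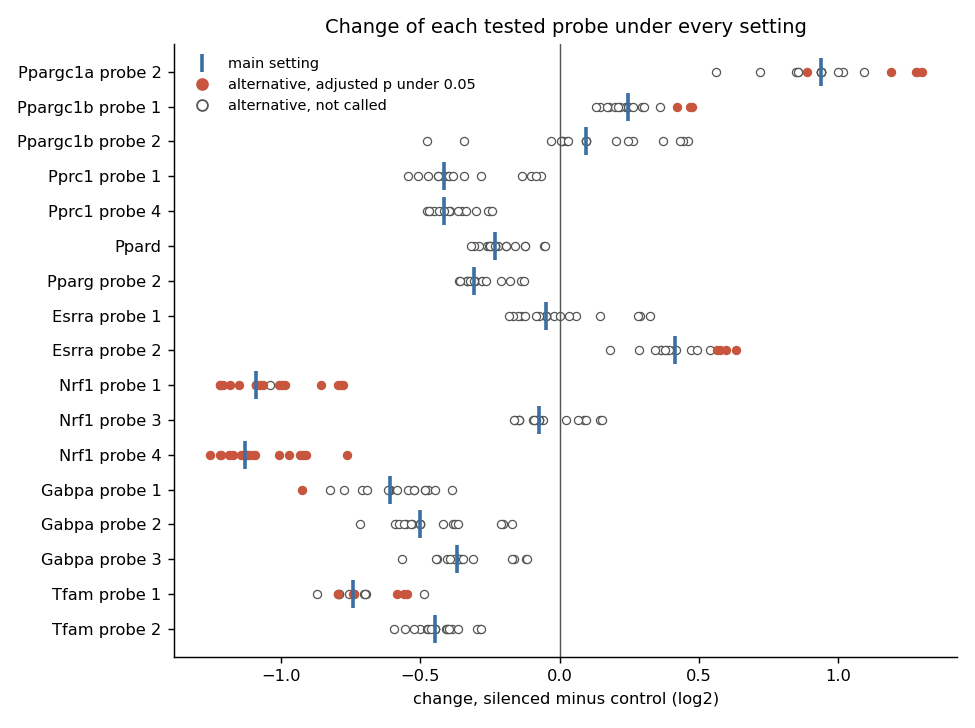
For each of the 17 tested probes the bar marks the main change (log2, x axis) and the points mark the alternatives, filled where the adjusted p was under 0.05. Nrf1 probes 1 and 4 are filled in 18 alternatives each, Ppargc1a probe 2 in 5 of 19 and Tfam probe 1 in 6 of 19.

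The promoters of these genes show which of the regulators' own binding motifs lie near their starts. RefSeq promoter windows (build GRCm38.p6, 250 bases before to 50 after a start) were at hand for 9 of the 10 genes, 12 windows in all. Each of the following motifs was searched on both strands. The NRF1 motif GCGCANGCG was in the windows of Esrra and Ppara, and in 6.25% of 32851 promoters of the same length. The GABPA motif CCGGAAG was in those of Tfam and Gabpa, and in 8.86% of all promoters. The YY1 motif AAGATGGCG was in that of Gabpa (1.40% of all), while the ERR motif TCAAGGTCA (0.423% of all) and the E-box CACGTG (7.15% of all) were in none. No window of Nrf1, Ppargc1a, Pprc1, Ppard or Pparg held any of the 5 motifs, which says only that these letters are not in these windows. The 30 bases around each match are shown, with the motif in capitals, because most of these motifs belong to factors among the regulators themselves; a match is a description and not a proven site.
Tfam, GABPA motif, chr10:71238074-71238103, minus strand: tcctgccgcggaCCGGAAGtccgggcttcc
Gabpa, GABPA motif, chr16:84835019-84835048, plus strand: ggagggtaagtgCTTCCGGgtccctcagct
Gabpa, YY1 motif, chr16:84835045-84835074, plus strand: agctaagactcCGCCATCTTtcctacactt
Esrra, NRF1 motif, chr19:6921931-6921960, minus strand: cacaggaggccGCGCACGCGtgtgtatcga
Ppara, NRF1 motif, chr15:85735735-85735764, plus strand: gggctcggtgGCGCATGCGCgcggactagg
The Tfam match begins 47 bases before the start of transcription, and the Ppara stretch holds overlapping matches on both strands.

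Genes that work with the regulators were counted by their brightest tested probe, over lists of genes fixed by symbol. Among 40 partners and upstream regulators, 35 were tested, of which 5 were called lower, 1 higher and 29 not called, with a median change of -0.42 beside -0.09 over all genes. Over all genes tested 14% were called lower and 5.99% higher, and the counts in this list lie near these shares. Of the 19 genes not called that had several tested probes, 11 had a dimmer probe called lower, against 33.6% of such genes over the array. The lower genes were Prkab1, a subunit of the energy sensor AMPK (-1.57, adjusted p 0.00229), Ncor1, a corepressor of nuclear receptors (-1.35, adjusted p 0.00274), Crebbp, the acetyltransferase coactivator CBP (-1.31, adjusted p 0.00324), Gabpb2, a partner subunit of GABPα (-1.31, adjusted p 0.0208), and Nrip1, a repressor of ERRα and PPAR genes (-0.92, adjusted p 0.0152). Nrip1 was named after its value was seen. All 3 tested Crebbp probes and both Prkab1 probes were called lower, against 2 of 5 for Ncor1 and 1 of 5 for Nrip1. The Gabpb2 probe was well above background on 1 silenced array, and it was called in 14 of 18 alternatives: the call was lost without control 2 (adjusted p 0.0626) or control 4 (0.0685), with the methods' t-test (0.0897) and when the slide row was blocked (0.0888). With normexp background correction its change was -0.61 (adjusted p 0.0316). Lpin1, a phosphatidate phosphatase that also coactivates PPARα with PGC-1α, rose on both tested probes, by 1.28 for the brighter one (adjusted p 0.00313). It read 6.32, 6.42, 6.70 and 6.77 on the control arrays and 8.02, 8.02, 7.81 and 7.49 on the silenced arrays, so the groups did not overlap. The control values lay close to the lowest signals well above background on the control arrays, 5.99 to 6.17.

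Of the 26 genes that transcribe and copy mitochondrial DNA alongside Tfam, all 26 were tested, with 24 well above background on all control arrays and 23 on all silenced arrays. In this list 4 were called lower, 0 higher and 22 were not called, with 4 lower and 4 higher at an unadjusted limma p under 0.05 (21.6% and 11.4% of all genes). The methods' t-test called 0 in either direction after adjustment. The median change was 0.20. The 4 lower calls lie near the 14% over all genes, and 5 of the 12 genes not called with several tested probes had a dimmer one called lower, against 33.6% over the array. Polg, the mitochondrial DNA polymerase, fell on all 3 tested probes, by 1.02 on the log2 scale for the brightest (adjusted p 0.0184). It was called in 14 of 19 alternatives and lost its call without control 4 (adjusted p 0.0539), with the slide row (0.0934) or the replicate number (0.0510) as a block, without masking (0.0552) and with the methods' t-test (0.0546). Twnk, the replicative helicase named Peo1 on the array, changed by -0.93 (adjusted p 0.0407), Fastkd2, a mitochondrial RNA-binding protein, by -0.74 (adjusted p 0.0463), and Mterf3, a repressor of mitochondrial transcription, by -0.70 (adjusted p 0.0458). These 3 calls were close to the threshold and were lost when single arrays were left out. Twnk lost its call without any of control 1, 2 and 4 and silenced 1, 3 and 4 (adjusted p 0.0639 to 0.124), Fastkd2 in 7 and Mterf3 in 6 of the 8 such fits. Over all 19 alternatives Twnk was called in 7, Fastkd2 in 9 and Mterf3 in 10.

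Of 30 target genes of the PPAR receptors and ERRα, 25 were tested, with 3 called lower, 2 higher and 20 not called, and a median change of 0.02. These counts lie near the 14% and 5.99% over all genes. Among the 6 genes not called with several tested probes, 2 had a dimmer probe called lower and 1 a dimmer probe called higher, against 33.6% and 2.66% over the array. Angptl4, a lipase inhibitor and PPAR target, rose by 1.48 (adjusted p 0.00658), with 12.37, 12.45, 13.02 and 12.66 on the control arrays and 14.18, 14.28, 14.61 and 13.37 on the silenced arrays. Cpt2, the inner-membrane step of fatty acid import, rose by 1.02 on its brightest probe (adjusted p 0.0179), while its other probe was called lower. The Cpt2 rise was called in 14 of 19 alternatives and lost its call without control 2 (adjusted p 0.0635), control 4 (0.0542) or silenced 1 (0.0559), with the methods' t-test (0.0580) and when the slide row was blocked (0.0615). The uncoupling proteins Ucp2 and Ucp3, both of the mitochondrial inner membrane, were well above background on all control arrays and on no silenced array. Ucp2 was at least 3.97-fold lower (adjusted p 0.000237) and Ucp3 at least 3.38-fold lower (adjusted p 0.000928). Hadha, the α subunit of the trifunctional protein of β-oxidation, fell by 1.23 on the log2 scale (adjusted p 0.00691). Genes that the study followed gave no call: Cpt1a and Cpt1b, the outer-membrane step of fatty acid import, changed by 0.25 (adjusted p 0.609) and -0.50 (adjusted p 0.349), and Plin2, a lipid droplet coat protein, by -0.37 (adjusted p 0.225).

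Nuclear targets of Nrf1 and Gabpa gave no call by their brightest tested probe. Of 30 such genes, mostly respiratory chain subunits, 29 were tested and 0 were called by limma or by the methods' t-test after adjustment, beside 14% lower and 5.99% higher by limma over all genes. At an unadjusted limma p under 0.05 there were 5 higher and 2 lower, against 11.4% and 21.6% of all genes. A dimmer probe was called lower in 5 of the 12 with several tested probes, against 33.6% over the array: Atp5b, Ndufv1, Uqcrb, Timm23 and Alas1, which except for Alas1 were named for this after their values were seen. The median change was 0.14 beside -0.09 over all genes, and 21 of the 29 lay above that median of all genes. The changes ran from -0.86 for Tomm70a, an import receptor (adjusted p 0.123; -0.45 without silenced 4), to 0.66 for Alas1, the first enzyme of haem synthesis (adjusted p 0.0947), both named as the ends of the range. Alas1 was called in 5 of 19 alternatives, among them without control 3 (0.85, adjusted p 0.0305).

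Transcripts coded in mitochondrial DNA, which Tfam helps to make, did not change together. Of 15 such genes 11 were found under the names searched and tested; 5 were called lower, 1 higher and 5 were not called, beside 14% and 5.99% over all genes. Nd5, coded on the strand that carries most mitochondrial genes, read 13.97, 14.32, 13.40 and 14.25 on the control arrays and 11.50, 11.69, 10.71 and 11.54 on the silenced arrays. Every silenced value was far under the controls, and the change was -2.62 (SE 0.29, limma adjusted p 0.000673). Nd6, the protein gene of the opposite strand, read 8.47, 9.14, 9.19 and 9.02 on the control arrays and 12.14, 11.90, 13.21 and 10.86 on the silenced arrays. Here every silenced value was far above the controls, and Nd6 rose by 3.07 (SE 0.43, limma adjusted p 0.00162). The probes of Nd5 (chrM:13402-13461) and Nd6 (chrM:13552-13611) lie next to each other. Nd4l (-1.49, adjusted p 0.00445), Nd1 (-1.39, adjusted p 0.00611) and Nd2 (-1.30, adjusted p 0.00197), all complex I subunits, were lower, as was the ATP synthase subunit Atp8 (-0.90, adjusted p 0.0170), which was named after its value was seen. The others that were not called were Cox1, Cox2, Cytb and Nd4, with changes between -0.33 and -0.18, and Nd3 with 0.31, whose probe is placed by the files on chromosome 1 and not in mitochondrial DNA. The calls of Nd5, Nd6, Nd4l, Nd1 and Nd2 held in all 19 alternatives each.

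**Figure D5:**
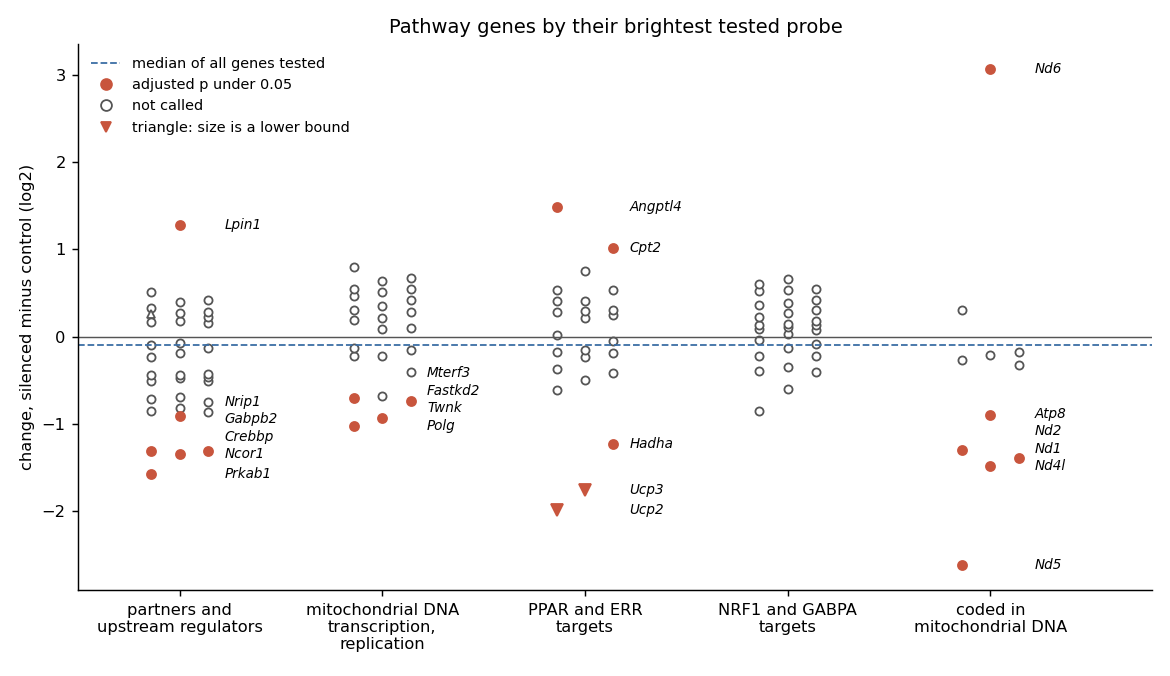
Each point is 1 gene of a list (x axis), at the change of its brightest tested probe (silenced minus control, log2, y axis); filled points passed the adjusted threshold and are named. Triangles stand at a lower bound of the size, for genes that were well above background on no array of one group (Ucp2, Ucp3 and Prkaa2), and Rrm2b, for which no fold can be given, is left out. Cyp4a14, well above background on no array of either group, is drawn as an open point, and its height is not to be read as a fold. Transcripts coded in mitochondrial DNA run from Nd5 at -2.62 to Nd6 at 3.07, while no target gene of Nrf1 and Gabpa was called by its brightest probe.

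The measurements cannot tell fewer cells of a type from less RNA per cell, as whole cultures were lysed. For the genes without a call, the 95% intervals give what the arrays leave possible: -0.22 to 0.72 for Ppargc1b probe 1, -0.85 to 0.03 for Pprc1 probe 4 and -0.91 to 0.01 for Tfam probe 2, all on the log2 scale. A missed threshold therefore does not show that these regulators were unchanged.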

How the data were processed

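Each array was a scanner file. In the deposited files every spot has an intensity (linear scale) and flags of 0 or 1; the headers name Feature Extraction 12.0.0.7 and the submitters' processing notes 10.7.3.1. The authors let that program subtract background and detrend each array, with no normalization between arrays. The authors' own quantile-normalized table of intensity values served as an alternative only. Spots that were not positive and significant were treated as missing, which follows the study's methods; control spots and outlier-flagged spots were dropped. The remaining deposited intensity values were converted to log2, quantile normalized and averaged over the spots of a probe. With at least 3 values per group, 28649 probes entered limma 3.58.1 (R 4.3.3; lmFit, eBayes, group only) with Benjamini-Hochberg adjustment; limma was a choice made here. The methods' t-test, an alternative, is the two-tailed test with unequal variance that the study states for these arrays, here with Benjamini-Hochberg adjustment; the permutation p-values and Bonferroni correction that it states for muscle fibres were not run. A gene was represented by its tested probe with the highest mean over 8 arrays. Where no array of a group was well above background, a fold is a lower bound: the bright mean against the dim arrays, each set at the lowest signal well above background if its own was lower. Of the 24 member probes, 20 had an accession in the RefSeq gene table given.

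Members, lists and tests were chosen with earlier results of these data known. Named were all members, Pvt1, up to 4 called rises and 4 called falls of each list, Cpt1a, Cpt1b and Plin2, and the markers Alb, Ttr, Apoa1, Adipoq, Fabp4, Myod1, Myf5 and Des. Groups and replicate numbers came from the labels, which call the samples biological replicates. Alternatives were another scaling, background correction, mask, block, prior or test, the mean of all tested probes of a gene, and each array left out. The fit was checked on simulated data before use. Values on 4 arrays a group limit the precision. Figures were drawn with matplotlib 3.10.9.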

Additional observations from a re-analysis of the deposited data

Results flagged for a closer look

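In 6 of the 91 groups of 4 arrays examined, 1 array lay apart from the other 3 of its group by the 95% limit of Dixon's test, where chance gives about 1 in 20. Ppargc1b probe 2 read 6.05 on control 3, against 7.69 to 7.88 on the other controls, and 6.63 on silenced 4, against 7.65 to 7.83 on the other silenced arrays. Ppargc1b probe 1 read 9.99 on silenced 4, against 10.41 to 10.46, and Gabpa probe 2 read 8.20 on silenced 4, against 8.74 to 8.80. Among the other genes, control 3 stood apart for Nd4l, with 14.29 against 15.11 to 15.25, and for Myod1, with 12.81 against 13.57 to 13.66. In all 6 cases the array had the lowest normalized value of its group. It was control 3 in 3 of them and silenced 4 in the other 3. Before normalization between arrays silenced 4 was not the lowest for Ppargc1b probe 1 (1285, others 1249 to 1445) or Gabpa probe 2 (424, others 355 to 465).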

How the results depend on the processing

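The calls of Nrf1 probes 1 and 4 kept their direction in all alternatives, and Pvt1 was called in 18 of 18 (-3.12 to -2.19, and -3.12 to -2.69 with 1 array left out); the authors' series table gave no Pvt1 value. Of all probes, 1373 were called higher and 5269 lower, against 2165 higher with a 75th percentile shift, 5416 with cyclic loess, 5009 in the authors' table and 4990 without masking of dim spots. Blocking on the slide row gave 534 higher and 2572 lower, and with the methods' t-test after Benjamini-Hochberg adjustment 566 and 2854; that test gave 9021 probes, 6 of them of members, at its unadjusted 0.05. With 1 array left out the counts ran from 684 to 3572 higher, the highest without silenced 4, and from 2995 to 5737 lower, the lowest without control 4. Lower calls made up 79.3% of calls, 85.9% without control 1 and 59.7% without silenced 4, 49.3% with cyclic loess, 48.8% in the authors' table and 49.0% without masking. Member probes called higher went from 0 to 1 with the percentile shift (Ppargc1a) and to 3 with cyclic loess, in the authors' table and without masking (Ppargc1a, Ppargc1b probe 1, Esrra probe 2), each gene also by its brightest probe, where the counts were 1, 3, 3 and 3; leaving out 1 array gave 0 to 2 by both counts, with 2 without silenced 4. Member probes called lower went from 2 to 0 when the slide row was blocked and 1 with the methods' t-test, and by brightest probe from 1 to 0 with both; leaving out 1 array gave 2 to 3 probes. Of the pathway genes 4 were called higher and 17 lower; higher calls were 10 with the percentile shift, 35 with cyclic loess, 9 with normexp, 36 in the authors' table, 28 without masking, 15 with a robust trended prior and 3 to 15 with 1 array left out (7 without control 3, 15 without silenced 4), and lower calls were 10 with the slide row and 10 to 17 with 1 array left out (10 without control 4). Directions turned for 3 probes, none of them called. Ppargc1b probe 2 changed by -0.48 with well above background spots only and by -0.34 to 0.37 with 1 array left out, below 0 without control 3 (-0.34) and silenced 3 (-0.03). Esrra probe 1 changed by 0.32 with cyclic loess, 0.29 in the authors' table, 0.28 without masking, 0.000733 blocked on the slide row and -0.18 to 0.14 with 1 array left out, above 0 without control 2, control 4 or silenced 4. Nrf1 probe 3 changed by 0.088 with cyclic loess, 0.14 in the authors' table, 0.15 without masking, 0.021 blocked on the slide row and -0.17 to 0.094 with 1 array left out, above 0 without control 3 or silenced 4. The cause of these shifts was not tested.

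The replicate numbers were checked for pairing: deviations from the group means correlated at -0.04, 0.19, 0.22 and 0.06 between same-numbered arrays. Between arrays of different numbers they correlated at -0.19 to 0.11. With 4 arrays a group this does not settle whether the numbers pair the samples. With the replicate number as a block, 1023 probes were called higher and 3994 lower, and the member probes called stayed at 0 higher and 2 lower. Dim signal limits Ppargc1a probe 1, both Ppara probes and Pprc1 probes 1 to 3, which were well above background on at most 2 arrays.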
